A study of Mus musculus with 20 samples.

Results

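The response to transforming growth factor beta (TGFB) of primary mouse cardiac fibroblasts carrying a control virus was read from RNA-seq gene counts, as the contrast of the group labelled GFP_TGFB with the group labelled GFP. These were 8 of the 20 libraries of the series, 4 in each group, and libraries with the same replicate number were paired. Per the labels' protocols the cells came from hearts of mice with a loxP-flanked Hyal2 gene (Hyal2fl/fl) and were used at passage P2, while the genotype label reads wild type C57BL/6J. They were starved of serum for 24 h, received an adenovirus coding for green fluorescent protein (GFP) for 5 h, and were collected after 48 h in fresh medium with factor at 20 ng/mL. The wording of the protocol leaves it unclear whether the GFP cultures received basic fibroblast growth factor (bFGF) in place of TGFB, so effects of adding TGFB and of withholding bFGF cannot be told apart. No Cre was given to either group, and both carried the same virus. Replicates 1 and 2 are labelled female and 3 and 4 male, and each number carries 1 isolate code in the library names. The other groups of the series received a Cre virus, a Cre virus with TGFB, or a Hyal2 virus, and of these only the Cre groups are used below.

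TGFB is secreted in a latent form, is released by integrins and proteases, and signals through a receptor kinase pair that phosphorylates SMAD2 and SMAD3. In the injured heart it is the best known inducer of the myofibroblast, a contractile fibroblast that carries smooth muscle actin and deposits collagen. SMAD proteins also switch on their own inhibitors, and the sister pathway of the bone morphogenetic proteins (BMPs) runs through SMAD1 and SMAD5 to the ID genes.

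Library totals ranged from 38.6 to 72.1 M counts, and 3 counts corresponded to 0.0401 to 0.0814 CPM (counts per 1 M of a library's total, TMM-scaled; this floor covers counting error only). Xist, read from the inactive X chromosome, matched the sex labels, with 166 to 266 CPM where the label reads female and no more than 0.163 CPM where it reads male. Of 10 fibroblast markers, all were detected in every library, with the collagen gene Col1a1 at 8440 to 20800 CPM. Of 12 heart muscle markers, Myh6, Pln and Nppa were at 0 in all 8 libraries and 7 others at or below 0.107 CPM, while the troponin genes Tnnt2 and Tnni3 reached 2.85 and 1.35 CPM. The first principal component held 76.9% of the variance and parted the groups, and the second, with 12.1%, divided the libraries by sex.

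TGFB changed the levels of most genes that could be tested. Of 14824 genes tested with edgeR's quasi-likelihood test and the isolate as a block, 8517 (57.5%) passed an adjusted p of 0.05. Of these, 4189 (28.3%) rose and 4328 (29.2%) fell. With counts scaled by the library totals instead of TMM, the split was 3226 higher and 5346 lower, and that scaling moved the median log2 fold change of all genes from -0.01 to -0.12. Large changes went down more often than up. At 2-fold or more, 920 genes (6.21%) rose and 1749 (11.8%) fell, at 4-fold 302 rose and 615 fell, and at 16-fold 55 rose and 114 fell. The 8 values did not overlap between the groups for 7655 genes (51.6%), and 10066 genes moved the same way in 4 of 4 pairs. In a library of a mixed culture, fewer cells of a type and less RNA per cell cannot be told apart. These shares are the background for every gene group below, where "2-fold" means called and changed by at least that much.

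**Figure D1:**
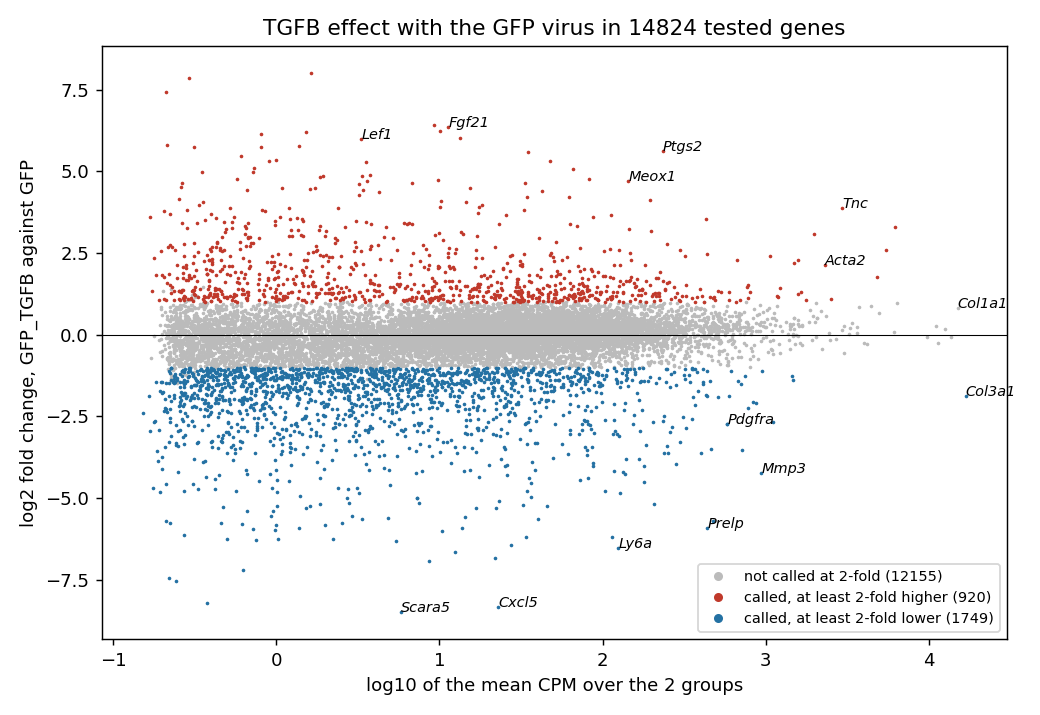
Log2 fold change of GFP_TGFB against GFP (y axis) by the log10 of the mean CPM over both groups (x axis), 1 point per tested gene, red for 920 genes called at least 2-fold higher, blue for 1749 called at least 2-fold lower, grey for the rest. Named genes include Tnc, high at the right, and Ly6a and Prelp, far below 0.

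The largest rises included genes that were close to silent in GFP. Cdh6, a cell-cell adhesion cadherin, lay at 0.2, 0.454, 0.112 and 0.0233 CPM in GFP and at 18.9, 22.3, 17.9 and 14.4 CPM in GFP_TGFB (replicates 1 to 4 in this order, here and below). The groups did not overlap, and pooled counts differed 75-fold (95% exact interval of counting error 56.6 to 102). Olfm2, an olfactomedin of the secretory pathway, rose from 1.29, 1.43, 1.62 and 1.28 CPM to 70.5, 54.3, 73.5 and 77 CPM, by 5.59 on the log2 scale (SE 0.12, edgeR adjusted p = 1.4e-07). Arginase (Arg1) rose by 5.29, the retinoic acid binding protein Crabp2 by 5.07 and skeletal actin (Acta1) by 4.90. At the other end, the scavenger receptor gene Scara5 had 230, 349, 934 and 678 counts in GFP and 1, 2, 2 and 0 counts in GFP_TGFB. Its pooled counts were 429-fold lower with TGFB (interval 184 to 1320). Pooled counts of the chemokine Cxcl5 were 350-fold lower (interval 238 to 535), with no overlap in either gene. The plasma protein genes Hp (haptoglobin) and A2m (alpha-2-macroglobulin) had log2 fold changes of -6.92 and -6.44, and the glycogen regulator Ppp1r3c was also among the 10 largest decreases.

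Genes listed for TGFB ligands, latency proteins and integrins rose more often than they fell. Of 13 tested, 9 rose and 2 fell, with a median log2 fold change of 0.55. At 2-fold only 2 rose and 1 fell. Tgfb1, the ligand itself, lay at 56.1, 57.8, 40.1 and 37.8 CPM in GFP and at 223, 191, 222 and 202 CPM in GFP_TGFB. Each treated library lay above each control library, a 4.43-fold difference (edgeR adjusted p = 8.34e-06). Tgfb3 rose by 0.41 and Tgfb2 fell by 0.56 on the log2 scale, so the 3 ligand genes did not move one way. Ltbp2, a matrix protein of the latent TGFB binding family, rose from 374 to 444 CPM in GFP to 2660 to 4070 CPM in GFP_TGFB (log2 fold change 3.10). Lrrc32, which holds latent TGFB at the cell surface, rose by 0.89. Itgb8, the integrin subunit that releases latent TGFB, fell from 32.1, 33.8, 21.9 and 28.4 CPM to 3.34, 3.4, 2.03 and 1.94 CPM, an 11-fold decrease without overlap (edgeR adjusted p = 4.81e-07).

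Of 12 receptor genes, 4 rose and 5 fell, beside 28.3% and 29.2% of all genes. The signalling receptors of TGFB itself changed little: Tgfbr1 rose by 0.44 and Tgfbr2 fell by 0.29 on the log2 scale. The co-receptor Tgfbr3 (betaglycan) fell from 47 to 81.8 CPM to 7.86 to 8.79 CPM, 7.6-fold. Acvr1b, an activin receptor kinase, had a log2 fold change of -1.99 and Acvrl1 (ALK1) one of -1.47. Bmpr1b rose 4.46-fold from at most 2.12 CPM. Among SMADs and their co-repressors, 3 of 10 rose and 4 fell, also near the shares of all genes. Smad3, the main transcriptional effector, fell from 132, 144, 144 and 124 CPM to 83.8, 84.4, 79.4 and 85.8 CPM, and the highest treated value was below the lowest control value (log2 fold change -0.70, edgeR adjusted p = 8.2e-05). The co-repressors Skil (SnoN) and Tgif1 rose by 1.10 and 1.13.

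Inhibitors that TGFB is known to switch on rose: 5 of 7 were called higher and none lower, with a median of 0.84. The ubiquitin ligase Smurf2 stood at 88.1, 97.4, 88.2 and 101 CPM in GFP and 244, 256, 251 and 213 CPM in GFP_TGFB, with no overlap (log2 fold change 1.36, SE 0.08, edgeR adjusted p = 5.98e-06). Pmepa1, which sequesters receptor SMADs, rose by 1.12, the ligase Smurf1 by 0.94 and Smad7, the classical inhibitory SMAD, by 0.46. Smad6, the inhibitor tied to BMP signals, was not called in all 4 isolates together (log2 fold change -0.54, edgeR adjusted p = 0.0852).

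BMP-SMAD target genes went the other way. None of 10 tested rose and 6 fell, 5 of them at 2-fold, with a median of -1.22. Id3, an inhibitor of helix-loop-helix transcription factors, fell from 580, 486, 648 and 542 CPM to 177, 141, 130 and 147 CPM (log2 fold change -1.92, SE 0.10, edgeR adjusted p = 3.58e-06). The groups lay far apart, as they did for Id1 at 40.5 to 60.7 CPM in GFP and 14.8 to 17.4 CPM in GFP_TGFB. Atoh8, a target of BMP and ALK1 signals, fell 9.91-fold, and Id2 4.35-fold.

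Among 15 genes known as direct TGFB targets, 10 rose and 3 fell, 6 and 3 of them at 2-fold. Ccn2 (CTGF), a matricellular protein, lay at 2890, 3230, 1440 and 1570 CPM in GFP and at 7130, 6400, 8270 and 7380 CPM in GFP_TGFB. The groups did not overlap, while the control values of the female isolates were above those of the male ones. The rise was 3.39-fold (edgeR adjusted p = 0.00202). Il11, an interleukin with known effects on fibroblasts, rose from 1.71, 4.68, 1.26 and 1.65 CPM to 34.2, 40.4, 34.3 and 27 CPM. All 4 treated values were above all control values, and the log2 fold change was 3.96 (SE 0.27, edgeR adjusted p = 3.89e-05). Nox4, a hydrogen peroxide producing oxidase, rose 5.59-fold and the cell cycle inhibitor Cdkn2b (p15) 6.19-fold. Tgfbi, although named for its induction by TGFB, fell from 173, 223, 269 and 227 CPM to 11.4, 17.6, 10.6 and 10.3 CPM. That 18-fold decrease had no overlap (edgeR adjusted p = 3.89e-06).

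The contractile apparatus rose broadly. Of 28 genes, 24 rose and 2 fell, 12 rose at 2-fold and none fell at 2-fold, and the median was 0.85. Together they took 1.01% to 1.33% of a library's counts in GFP and 2.32% to 2.57% in GFP_TGFB. Acta2, smooth muscle actin and the defining myofibroblast gene, lay at 1130, 849, 555 and 925 CPM in GFP and 4020, 3270, 3420 and 4170 CPM in GFP_TGFB. The lowest treated library was well above the highest control library (log2 fold change 2.14, SE 0.13, edgeR adjusted p = 8.06e-06). Calponin (Cnn1) rose from 4.86, 5.08, 1.3 and 3.19 CPM to 83.6, 57.3, 49.7 and 69.9 CPM, 18.8-fold. The actin-binding gene Tagln (SM22) rose 4.93-fold and tropomyosin Tpm1 4.54-fold. Myh11, the heavy chain of differentiated smooth muscle, rose 3.03-fold but only to 1.04 to 3.01 CPM. Mylk, the kinase that activates smooth muscle myosin, and Synpo2 were the 2 members that fell (log2 fold changes -0.96 and -0.77). Of 6 tested pericyte and smooth muscle markers, Myh11 among them, 3 rose and 3 fell. Cspg4 (NG2) rose from 2.26 to 3.06 CPM to at least 55.4 CPM, while Notch3 fell, and the marker list took 0.0147% to 0.0199% of counts in GFP and 0.0136% to 0.0177% in GFP_TGFB. Its part in the contractile result was not tested.

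Contractile genes are classically driven by serum response factor (SRF), which binds the CArG box, written CC, then any A or T at 6 positions, then GG. The strict box was searched on both strands in the 250 bases before the RefSeq start site (build GRCm38.p6), where 3 of 25 contractile genes with a promoter entry held it (12%), against 1.62% of 27025 promoters. All 3 were called higher in GFP_TGFB, as were 24 of all 28 contractile genes, so the direction does not set them apart. They were Myl9, the smooth muscle myosin light chain (log2 fold change 1.29), Cnn2, a calponin (0.66), and Vcl, vinculin of focal adhesions (0.55). Acta2, Cnn1 and Tpm1, which rose more, held no match. The letters CAGACA and TTTGAA were searched in the same way. CAGACA was in 19.3% of all promoters and 24% of contractile promoters. Over the lists searched it ranged from 4.35% (G2 and M phase) to 33.3% (1 of 3 SMAD feedback inhibitors). TTTGAA was in 18.3% of all promoters and 12% of contractile promoters, and in 34.8% of G2 and M phase promoters. A match is a description of letters and does not show that a factor bound. The 120 bases around each box are shown so that the position of the match can be seen, with the box in capitals, at chr2:156775248-156775367 (plus strand), chr10:79988480-79988599 (plus strand) and chr14:20929148-20929267 (plus strand).
Myl9: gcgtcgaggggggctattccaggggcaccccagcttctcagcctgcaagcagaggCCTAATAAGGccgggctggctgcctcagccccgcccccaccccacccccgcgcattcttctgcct
Cnn2: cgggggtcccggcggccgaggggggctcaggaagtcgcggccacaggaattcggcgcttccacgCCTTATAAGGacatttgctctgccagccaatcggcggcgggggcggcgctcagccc
Vcl: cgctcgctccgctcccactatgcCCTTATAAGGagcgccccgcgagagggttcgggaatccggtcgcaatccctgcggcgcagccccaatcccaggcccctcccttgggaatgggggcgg

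Regulators and targets of SRF and of the mechanosensitive co-activator YAP moved less than the contractile genes themselves. Of 18 tested, 7 rose and 3 fell, with a median of 0.10 that was 0.00 when counts were scaled by the library totals. Srf rose by 0.70 and its co-activator Mrtfa by 0.81, whereas Yap1 had a log2 fold change of 0.12 and was not called. Ankrd1, a YAP target, rose from 310, 419, 115 and 157 CPM to 1120, 1260, 937 and 1030 CPM, 4.9-fold and without overlap (edgeR adjusted p = 0.000497). Fhl1, a LIM domain gene of stretched muscle, was the largest decrease at 2.75-fold.

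**Figure D2:**
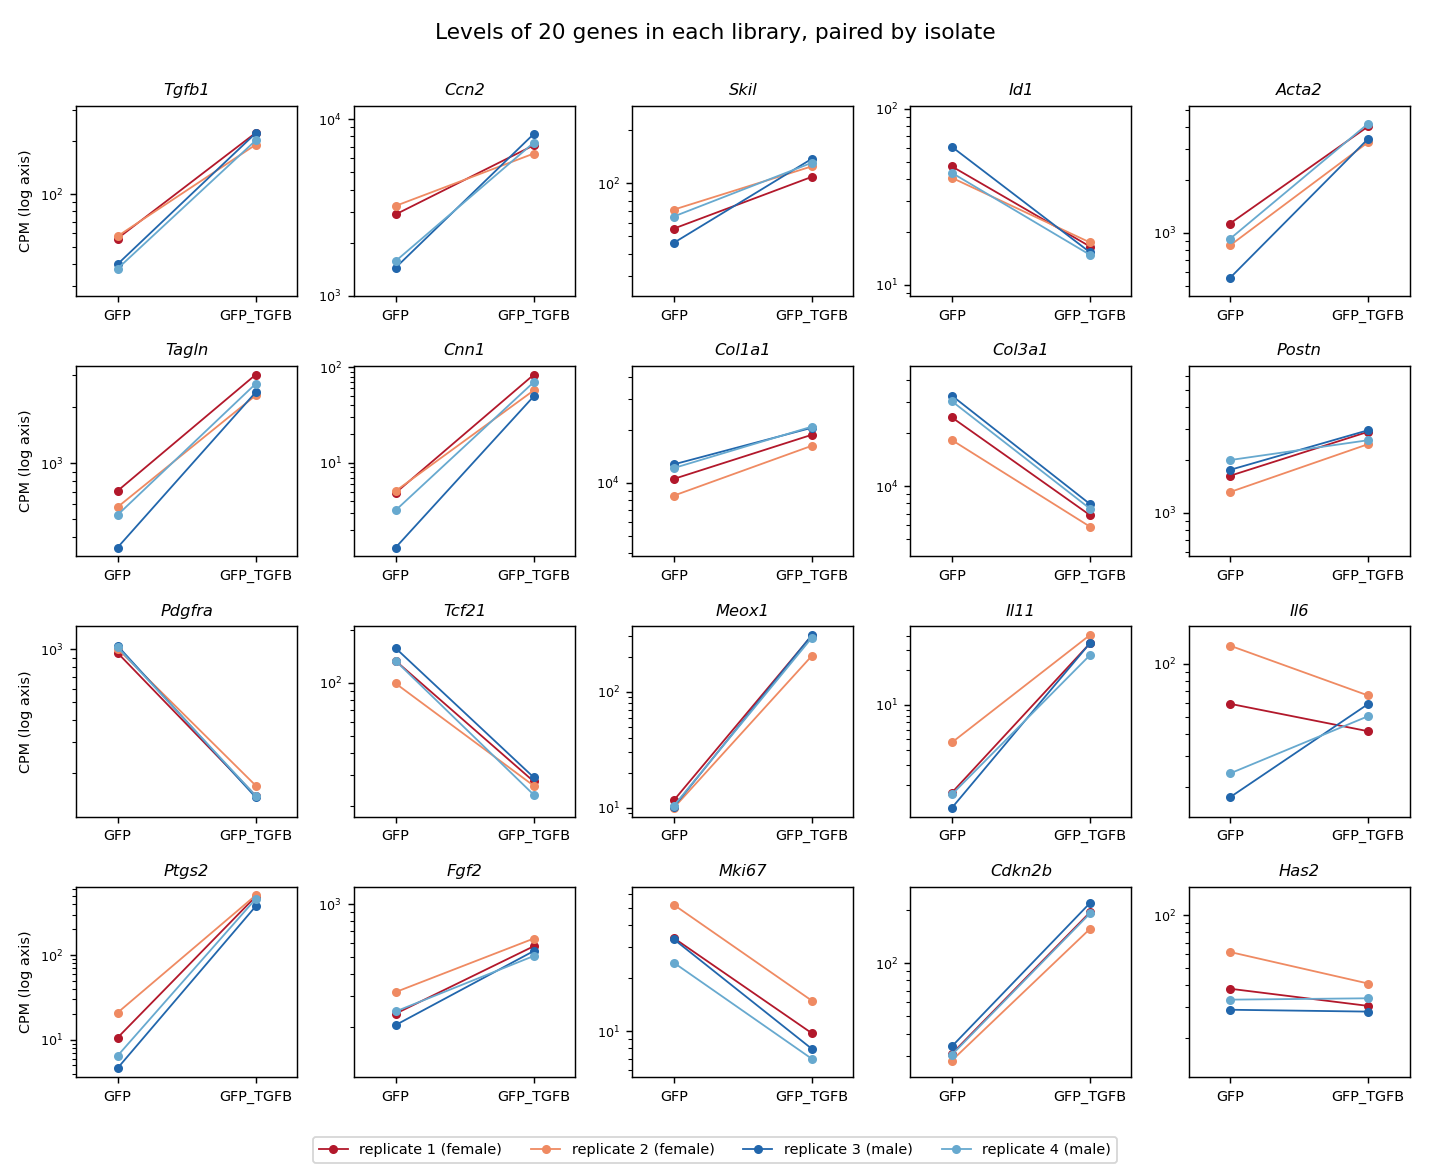
CPM on log axes (y) in GFP and GFP_TGFB (x) for 20 genes, 1 line per isolate, red and orange for female and blue for male isolates. Every isolate rises for Acta2, Ccn2 and Il11 and falls for Pdgfra and Col3a1, while the lines of Il6 cross.

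Collagen genes split by type. Of 11 fibrillar collagens, 5 rose and 3 fell, and their joint share of counts went from 5.4%, 4.42%, 6.76% and 6.37% in GFP to 4.76%, 4.36%, 5.27% and 5.13% in GFP_TGFB. As a share of library totals it was lower in 4 of 4 pairs, although the ranges of the groups overlapped. On the TMM scale replicate 2 went the other way, with a sum of 41900 CPM in GFP and 43600 CPM in GFP_TGFB. Col1a1, the main chain of scar collagen, rose from 10500, 8440, 12700 and 12100 CPM to 18700, 16200, 20500 and 20800 CPM, 1.75-fold and without overlap (edgeR adjusted p = 2.89e-05). Col1a2, its partner chain, rose 1.2-fold with overlapping groups. Col3a1, the other abundant fibrillar chain of the heart, fell from 24600, 18300, 32700 and 30400 CPM to 6860, 5900, 7930 and 7470 CPM. That decrease was 3.7-fold, with no overlap (edgeR adjusted p = 1.54e-06). Col5a3 and Col11a1, minor fibril chains, rose by 1.57 and 1.15. The call of Col27a1 (log2 fold change -1.15) was lost without replicate 4 (edgeR adjusted p = 0.0805).

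Among 15 other collagens, 8 rose and 6 fell. Col6a1 and Col6a2, 2 chains of the microfibril collagen VI, fell together: Col6a1 from 568, 404, 1160 and 865 CPM to 64.2, 64.1, 52.6 and 45.3 CPM (12.4-fold) and Col6a2 12.2-fold. The third chain, Col6a3, had a log2 fold change of -0.17 and was not called. Col7a1, the anchoring fibril collagen of skin, rose from 10.6 to 16.4 CPM to 117 to 141 CPM, 10.1-fold (edgeR adjusted p = 5.36e-07). Col12a1, a fibril-associated collagen, and Col8a2 rose by 1.58 and 1.37, while Col14a1, another fibril-associated collagen, had a log2 fold change of -3.28. Basement membrane chains Col4a1 and Col4a2 rose by 0.67 and 0.35.

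Enzymes that process and cross-link collagen were divided, 9 of 21 higher and 8 lower. The procollagen N-proteinases changed in opposite directions: Adamts2 fell from 1230, 1010, 1530 and 1370 CPM to 281, 259, 274 and 254 CPM (4.76-fold), and Adamts14 rose from 14.2, 14.6, 16.3 and 14.4 CPM to 86.4, 79.2, 75.9 and 81.5 CPM (5.43-fold). Neither pair of groups overlapped. Lysyl oxidase (Lox) rose by 1.10, Loxl2 by 1.33 and Loxl3 by 1.06, while Loxl1, an elastin cross-linker, fell by 0.46 on the log2 scale. The prolyl hydroxylase subunit P4ha3 fell 2.56-fold, and Plod2, a lysyl hydroxylase, was not called.

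Matricellular proteins and glycoproteins had as many rises as falls, 10 each of 25, and 8 rises against 5 falls at 2-fold. Tenascin C (Tnc), an adhesion-modulating protein of wounds, rose from 384, 531, 283 and 337 CPM to 6260, 5740, 4520 and 5520 CPM. The 14.7-fold rise had no overlap (edgeR adjusted p = 4.05e-07). Members of the CCN family moved apart: Ccn4 (WISP1) rose 9.01-fold and Ccn2 rose, while Ccn3 fell from 45.1 to 85.9 CPM to 2.13 to 2.55 CPM (27.5-fold) and Ccn5 fell 11.3-fold. Elastin (Eln) rose by 2.13 and Cthrc1, a collagen triple helix repeat protein of activated fibroblasts, by 2.60. Periostin (Postn), a matrix protein used as an activation marker, rose from 1620, 1310, 1750 and 1990 CPM to 2880, 2450, 2940 and 2580 CPM, 1.64-fold. Fibronectin (Fn1) lay at 10700 to 13300 CPM in GFP and 12200 to 13900 CPM in GFP_TGFB and was not called (edgeR adjusted p = 0.0612), though DESeq2 and limma-voom gave adjusted p of 0.0438 and 0.047 at log2 fold changes of 0.18 and 0.17.

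Most proteoglycans fell. Of 21 tested, 14 fell and 2 rose, 11 and 1 at 2-fold, with a median of -1.24. Prelp, a small leucine-rich proteoglycan that anchors collagen to basement membranes, fell from 836, 621, 1180 and 801 CPM to 16.9, 20.2, 12.8 and 7.72 CPM. The 61-fold decrease left no overlap (edgeR adjusted p = 3.41e-05). Decorin (Dcn), which binds collagen and TGFB, fell 4.16-fold and lumican (Lum) 3.41-fold. The glypican Gpc1 and perlecan (Hspg2) were the 2 that rose (1.32 and 0.39). Of 16 tested hyaluronan genes, 5 rose and 6 fell, near the 28.3% and 29.2% of all genes. The receptor Cd44 rose from 103, 129, 74.7 and 83.3 CPM to 264, 290, 218 and 225 CPM, 2.59-fold with no overlap (edgeR adjusted p = 3.9e-06). Has2, the main synthase, and Hyal2, the gene whose alleles are floxed in these cells, were not called (log2 fold changes -0.24 and -0.16); scaling by library totals gave each a call, at -0.34 and -0.27, as did leaving out replicate 4 for Has2 (-0.32) and a filter at 1 CPM for Hyal2 (-0.18). The hyaluronan depolymerase Cemip and the cross-linker Tnfaip6 were called at -1.06 and 0.96 (edgeR adjusted p = 0.0227 and 0.024). Both calls were lost without replicate 1, 3 or 4, with adjusted p of 0.0586, 0.0595 and 0.115 for Cemip and 0.067, 0.0591 and 0.157 for Tnfaip6.

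Matrix proteases and their inhibitors changed in both directions, 15 of 34 higher and 17 lower. The stromelysins moved in opposite directions: Mmp3 fell from 1890, 1810, 1900 and 1530 CPM to 99.4, 105, 95.1 and 81.8 CPM, and Mmp10 rose from 1.91, 4.84, 1.37 and 1.72 CPM to 91.3, 99.5, 75.2 and 106 CPM. These were an 18.7-fold decrease (edgeR adjusted p = 7.39e-08) and a 39.7-fold rise (2.52e-05). Mmp2, a gelatinase, fell 2.65-fold, and the aggrecanases Adamts5 and Adamts15 had log2 fold changes of -2.85 and -4.72. In the plasminogen system Plat and Plau, the activators, had log2 fold changes of -1.41 and -1.01, while the urokinase receptor Plaur rose by 2.26. Among the tissue inhibitors Timp1 and Timp3 rose by 0.89 and 0.77 and Timp2 had a log2 fold change of -1.11.

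Markers of resting and progenitor fibroblasts fell more than any other list by median (-2.67). Of 29, 23 fell and 3 rose, 21 and 2 at 2-fold, against 11.8% and 6.21% of all genes. Pdgfra, the receptor that marks fibroblasts in the heart, fell from 957, 1010, 1050 and 1030 CPM to 148, 169, 145 and 148 CPM (6.64-fold, edgeR adjusted p = 1.95e-07). Values within each group were close, and the groups were far apart. Ly6a (Sca-1) fell from 206, 177, 315 and 290 CPM to 3.96, 2.73, 2.08 and 1.57 CPM, 93.2-fold. The sialomucin Cd34 fell 73.2-fold, Dpt (dermatopontin) 12.2-fold and Pi16, a marker of the adventitial progenitor state, 4.5-fold. The opioid precursor Penk and the microfibril gene Mfap5 rose, by 2.81 and 1.09. Of the 10 general fibroblast markers, 7 fell and 2 rose (Col1a1 and Col1a2).

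Transcription factors of the mesenchyme changed in both directions, with 10 of 36 higher, 19 lower and 7 each way at 2-fold. Of all genes, 28.3% were called higher and 29.2% lower, so the count of rises was near the background. Meox1, a homeobox gene, lay at 11.6, 10, 10.2 and 10.4 CPM in GFP and at 305, 204, 308 and 292 CPM in GFP_TGFB. Its paralog Meox2 lay at 4.02, 3.63, 11.2 and 9.35 CPM and then at 0.434, 0.347, 0.203 and 0.412 CPM. The 2 paralogs thus moved apart, by 4.70 (SE 0.11, edgeR adjusted p = 1.4e-07) and -4.15 (SE 0.35, 5.48e-05) on the log2 scale. Tcf21, which specifies cardiac fibroblasts in the embryo, fell 4.88-fold, and Sox9, a cartilage regulator, 2.92-fold. Foxs1 rose 6.41-fold, the tendon regulator Scx 4.21-fold and Runx1 1.47-fold. Of the epithelial to mesenchymal transition factors, Snai1, Zeb1 and Zeb2 fell (-1.13, -0.61 and -0.54) and Snai2 and Twist1 were not called.

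Growth factor genes of several families changed in both directions. Of 24 genes of the PDGF, VEGF, IGF and HGF families, 6 rose and 13 fell. Pdgfc rose from 4.48, 5.86, 2 and 3.07 CPM to 74.6, 65.2, 99.5 and 87.4 CPM (21.3-fold) and Pdgfa 3.45-fold, while their receptor Pdgfra fell. Vegfa, the angiogenic factor, rose 2.48-fold, and Vegfd, a lymphatic growth factor, fell from 145 to 338 CPM to 6.82 to 9.98 CPM (29-fold). Hgf and Igf1 fell 6.32-fold and 5.15-fold. Of 11 tested FGF genes 4 rose and 6 fell. Fgf2, which codes for bFGF, rose from 239, 317, 206 and 246 CPM to 577, 638, 542 and 508 CPM (2.27-fold, no overlap, edgeR adjusted p = 1.06e-05), and Fgf7 fell 5.98-fold.

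Feedback targets of the ERK kinase pathway, which FGFs activate, did not share a direction: 11 of 19 rose and 6 fell, with 8 rises and 1 fall at 2-fold. Dusp5, a nuclear ERK phosphatase, rose from 2.06, 2.2, 1.66 and 2.26 CPM to 16.5, 18.7, 14 and 22.5 CPM (8.69-fold). Etv4, Fosl1, Ier3 and Myc rose 4.38-fold, 3.45-fold, 3.35-fold and 3.31-fold, and the call of Ier3 was lost without a low-count filter (edgeR adjusted p = 0.0586). Spry2 and Spry4, inhibitors of receptor tyrosine kinase signals, fell 2.74-fold and 1.42-fold, and cyclin D1 (Ccnd1) fell 1.74-fold. The call of Dusp6, the ERK phosphatase most used as a readout, was weak (log2 fold change 0.27, edgeR adjusted p = 0.0443) and was lost without replicate 1, 2 or 4 (adjusted p from 0.0532 to 0.152), with library totals (0.183), without the isolate block (0.105) and with a filter at 1 CPM (0.0566).

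In the Wnt pathway 9 of 30 genes rose and 17 fell. Ligands Wnt10b, Wnt11 and Wnt2 rose by 4.36, 3.67 and 3.39, and Wnt4 had a log2 fold change of -3.66. Lef1, the transcription factor at the end of the pathway, rose from 0.0444, 0.187, 0.0673 and 0.0465 CPM to 8.28, 5.58, 6.75 and 5.64 CPM. Pooled counts were 58.7-fold higher (interval 38.2 to 95.1). Axin2, the general feedback target of beta-catenin, was not called (-0.54, edgeR adjusted p = 0.134). Secreted antagonists of the SFRP family fell, with Sfrp1 at -2.67, Sfrp2 at -4.39 and Sfrp4 at -2.40, while Dkk2 rose 6.07-fold. BMP ligands and antagonists split evenly, 9 of 19 each way. Inhba, the activin A subunit, rose from 92.6, 125, 55.9 and 76.7 CPM to 497, 557, 465 and 518 CPM (6.04-fold, edgeR adjusted p = 6.88e-06), and Inhbb fell 4.09-fold. The BMP antagonist Grem1 rose 5.67-fold, and Bmp4 fell 3.71-fold.

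In the IL-6 family the ligands Lif and Il11 rose while receptor genes fell. Of 19 genes of this family and of prostaglandin synthesis, 5 rose and 11 fell, 5 and 10 at 2-fold. Lif rose from 9.43, 10.3, 2.56 and 4.63 CPM to 133, 95.8, 97.6 and 143 CPM (18.8-fold, no overlap, edgeR adjusted p = 0.000165). Its receptor Lifr fell 7.22-fold, and the shared signalling subunit Il6st (gp130) had a log2 fold change of -2.08. Il6 itself went opposite ways in the 2 sexes, from 59.4 and 127 to 41.5 and 66.2 CPM in the female isolates and from 17.5 and 23.9 to 59.2 and 50.5 CPM in the male ones. Over all 4 isolates it was not called (log2 fold change 0.32, edgeR adjusted p = 0.599). Ptgs2, the inducible prostaglandin synthase, rose from 10.6, 20.9, 4.64 and 6.49 CPM to 489, 505, 375 and 458 CPM, 48.9-fold, whereas the terminal synthase Ptges fell 3.38-fold. Of 9 tested endothelin, angiotensin and serotonin genes, 3 rose and 6 fell. Edn1 (endothelin) rose from 2.91 to 4.44 CPM to 15.1 to 24 CPM while its receptors Ednra and Ednrb fell (-1.63 and -1.54). Angiotensinogen (Agt), converting enzyme (Ace) and the receptor Agtr1a fell 17.8-fold, 18.4-fold and 12.5-fold. The serotonin receptor Htr2b had 15, 42, 2 and 1 counts in GFP and 251, 401, 308 and 313 counts in GFP_TGFB. Its pooled counts were 21.7-fold higher (95% exact interval of counting error 16.7 to 28.6).

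Innate immune genes fell across 3 lists. Chemokines fell in 11 of 13 tested genes and rose in 1 (median -1.51). Ccl7, a monocyte attractant, fell from 39.8, 44.1, 50.6 and 49.3 CPM to 5.18, 5.91, 5.5 and 6.1 CPM (8.05-fold, edgeR adjusted p = 1.96e-07), and Cxcl12, a retention factor for leukocytes, 2.75-fold. Complement genes fell in 16 of 17 and rose in none (median -1.24). C3, the central component, fell from 372, 250, 417 and 327 CPM to 25.3, 23.3, 11.3 and 6.47 CPM, 22.6-fold and without overlap (edgeR adjusted p = 0.000233).

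Interferon-stimulated genes fell in 36 of 41 and rose in 2, 24 and 1 at 2-fold, with a median of -1.13. Iigp1, an immunity GTPase, fell from 48.2, 69.4, 59.9 and 102 CPM to 2.9, 2.57, 3.22 and 3.03 CPM (23.3-fold, edgeR adjusted p = 1.15e-06), and the mitochondrial gene Ifi27l2a fell 21.9-fold. The immunoproteasome subunit Psmb8 fell 7.17-fold and the transcription factor Irf7 fell 3.38-fold. Isg15, a ubiquitin-like modifier, and its protease Usp18 were not called (log2 fold changes -0.21 and -0.23), and Irgm1 and Ifi27 rose (0.91 and 1.02). Ifit3 fell 5.02-fold, but it may share reads with the near-identical Ifit3b, which was not tested. The values of both are therefore uncertain.

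Macrophage and leukocyte markers fell with these lists. All 14 that were tested were called lower (median -0.89), and the list of 17 took 0.0266% to 0.0639% of counts in GFP and 0.0141% to 0.0354% in GFP_TGFB. The T cell gene Cd3e, the B cell gene Cd79a and the scavenger receptor Cd163 were at or near 0. The pan-leukocyte gene Ptprc (CD45) lay at 4.28, 3.46, 2.92 and 2.35 CPM in GFP and 2.47, 2.26, 1.24 and 0.969 CPM in GFP_TGFB, with overlapping groups. C1qa, C1qb and C1qc belong to both the complement and the macrophage list. Endothelial markers fell in 7 of 12 (0.00523% to 0.00638% and then 0.003% to 0.0041% of counts), mesothelial markers in 4 of 5 and Schwann cell markers in 3 of 4. The part of these cells in the immune gene results was not tested.

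Interferon-stimulated genes are known for the response element bound by the ISGF3 complex and by interferon regulatory factors. Its core, GAAA, then any 2 bases, then GAAA, on either strand, was found in 16 of 31 such genes with a promoter entry (51.6%), against 3.46% of all 27025 promoters. Ifit3 and Gbp3, an interferon-inducible GTPase that fell 4.61-fold, held 2 matches each, and they are shown so that the pairs can be seen. The matches began 156 and 122 bases before the start site in Ifit3 and 45 and 39 bases before it in Gbp3. Capitals mark the matches, which read TTTC, 2 bases and TTTC on the strand shown, at chr19:34583318-34583437 (plus strand) and chr3:142559924-142560043 (plus strand). In Gbp3 the 2 matches overlap.
Ifit3: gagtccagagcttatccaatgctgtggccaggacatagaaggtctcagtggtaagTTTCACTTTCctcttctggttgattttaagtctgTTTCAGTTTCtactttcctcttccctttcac
Gbp3: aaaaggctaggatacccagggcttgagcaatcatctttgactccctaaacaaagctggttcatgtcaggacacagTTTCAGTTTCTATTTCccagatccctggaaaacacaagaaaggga

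Genes of cell division fell as one. All 28 genes of the G2 and M phases were called lower, 24 of them at 2-fold, with log2 fold changes between -1.90 and -0.74 and a median of -1.45. Mki67, the standard proliferation marker, fell from 33.8, 52.2, 33.3 and 24.5 CPM to 9.74, 14.9, 7.94 and 6.97 CPM, 3.65-fold with no overlap (edgeR adjusted p = 1.26e-06). Replicate 2 was highest in both groups. The mitotic cyclin Ccnb2 fell 3.62-fold and Top2a 2.47-fold. S phase genes moved far less, with 10 of 29 lower, 3 higher and a median of -0.22. The replication licensing gene Mcm5 fell 1.54-fold, a call lost without the isolate block (edgeR adjusted p = 0.0566), and Pcna was not called. Among 14 inhibitors of the cycle 7 rose and 7 fell. Cdkn2b rose from 30.7, 28.1, 33.8 and 30.3 CPM to 195, 157, 220 and 192 CPM (edgeR adjusted p = 1.95e-07), Cdkn2a 1.84-fold and Cdkn1a (p21) 1.49-fold, while Cdkn1c (p57) had a log2 fold change of -2.22. The CCAAT box, a known feature of cell cycle promoters, was found in 19 of 23 G2 and M promoters (82.6%) against 37.5% of all promoters. It was also common in lists that did not fall, with 76.2% of stress response, 62.5% of serine, glycine and proline, and 56% of contractile promoters.

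Genes for making serine, glycine and proline rose: 13 of 21 were called higher and 3 lower, 9 and 1 at 2-fold, with a median of 0.86. Glycine and proline make up much of the collagen triple helix. Phgdh, the first enzyme of serine synthesis, lay at 38.6, 45.8, 37.6 and 34.5 CPM in GFP and 142, 111, 176 and 165 CPM in GFP_TGFB (3.75-fold, edgeR adjusted p = 8.02e-05). Values of the male isolates were highest with TGFB. Psph, the last enzyme of that branch, rose 3.87-fold, the mitochondrial folate enzyme Mthfd2 3.38-fold, and the proline synthesis enzymes Pycr1 and Aldh18a1 2.27-fold and 1.92-fold. Psat1, the middle enzyme, was not called over all isolates (log2 fold change 0.57, edgeR adjusted p = 0.0684). Glutamine synthetase (Glul) had a log2 fold change of -1.08.

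Of 23 genes of the integrated stress and unfolded protein responses, 10 rose and 4 fell, and the median of 0.06 became -0.05 with scaling by library totals. Nupr1, a stress-induced chromatin protein, rose from 97.2, 98.2, 89.1 and 85.7 CPM to 368, 274, 439 and 350 CPM (3.82-fold, edgeR adjusted p = 1.09e-05), and the glutathione-degrading enzyme Chac1 3.38-fold. Atf4, the transcription factor of the integrated arm, rose 1.37-fold. Hspa5 (BiP), the main chaperone gene of the unfolded protein arm, was not called (0.17, edgeR adjusted p = 0.0916). Atf3 and Ppp1r15a were called (3.11-fold and 2.56-fold), but without replicate 4 their adjusted p was 0.103 and 0.104.

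ATF4 and its partners bind a C/EBP-ATF composite element. The letters TGATGNAA, on either strand, were found in 5 of 21 stress response promoters (23.8%) and 3 of 16 serine, glycine and proline promoters (18.8%), against 3.91% of all promoters. The amino acid genes Asns (asparagine synthetase, 2.42-fold higher), Slc7a11 (the cystine transporter, 2.93-fold higher) and the stress genes Nupr1, Chac1 and Atf3 are shown because members of both lists hold the same letters, in capitals. The windows are chr6:7693210-7693329 (minus strand), chr3:50443616-50443735 (minus strand), chr7:126625517-126625636 (minus strand), chr2:119350993-119351112 (plus strand) and chr1:191183380-191183499 (minus strand). A match that lies on the strand not shown reads TTNCATCA.
Asns: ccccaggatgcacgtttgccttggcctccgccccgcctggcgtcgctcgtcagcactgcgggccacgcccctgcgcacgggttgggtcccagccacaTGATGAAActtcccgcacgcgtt
Slc7a11: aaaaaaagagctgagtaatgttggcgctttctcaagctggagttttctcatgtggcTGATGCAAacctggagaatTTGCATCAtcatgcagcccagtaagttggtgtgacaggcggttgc
Nupr1: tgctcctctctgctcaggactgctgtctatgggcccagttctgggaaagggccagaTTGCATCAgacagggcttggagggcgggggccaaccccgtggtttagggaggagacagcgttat
Chac1: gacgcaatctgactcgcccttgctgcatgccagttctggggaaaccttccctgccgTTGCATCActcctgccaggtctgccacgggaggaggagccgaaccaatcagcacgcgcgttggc
Atf3: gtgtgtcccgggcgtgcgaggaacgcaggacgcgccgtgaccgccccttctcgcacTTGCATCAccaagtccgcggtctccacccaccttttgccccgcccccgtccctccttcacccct

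Other metabolic lists were mixed. Glycolysis genes fell in 15 of 24 and rose in 3 (median -0.38). The rises were in hexokinase Hk2 (3.16-fold), the phosphofructokinase Pfkp and the regulator Pfkfb4 (2.81-fold), while Pdk1, a mitochondrial kinase that inhibits pyruvate dehydrogenase, fell from 103 to 123 CPM to 28.4 to 43.7 CPM. Cholesterol synthesis genes rose in 11 of 24 and fell in 1, with a median of 0.31. Fdps, which makes farnesyl diphosphate, rose from 17.1, 14.1, 17.3 and 21.5 CPM to 37.1, 27.7, 29.5 and 34.7 CPM (1.85-fold, no overlap, edgeR adjusted p = 7.25e-05), and the sterol oxidase gene Msmo1 1.96-fold. Adipogenic and lipid genes fell in 11 of 16 and rose in 4: lipoprotein lipase (Lpl) fell 8.5-fold, Cebpd 4.02-fold, and the lipid droplet coat gene Plin2 rose 2.44-fold. Of 25 glutathione and antioxidant genes 14 fell and 4 rose. Extracellular superoxide dismutase (Sod3) fell from 583, 504, 575 and 460 CPM to 43.6, 41, 32.3 and 23.7 CPM, 15.4-fold, and the transferases Gstt1 and Gstm1 fell 15.2-fold and 6.67-fold. In retinoic acid handling, 4 of 14 rose and 8 fell. Crabp2 and Crabp1, which carry retinoic acid in the cell, moved apart (5.07 and -2.89), as did the synthesis enzymes Aldh1a3 (3.03-fold higher) and Aldh1a1 (7.43-fold lower).

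**Figure D3:**
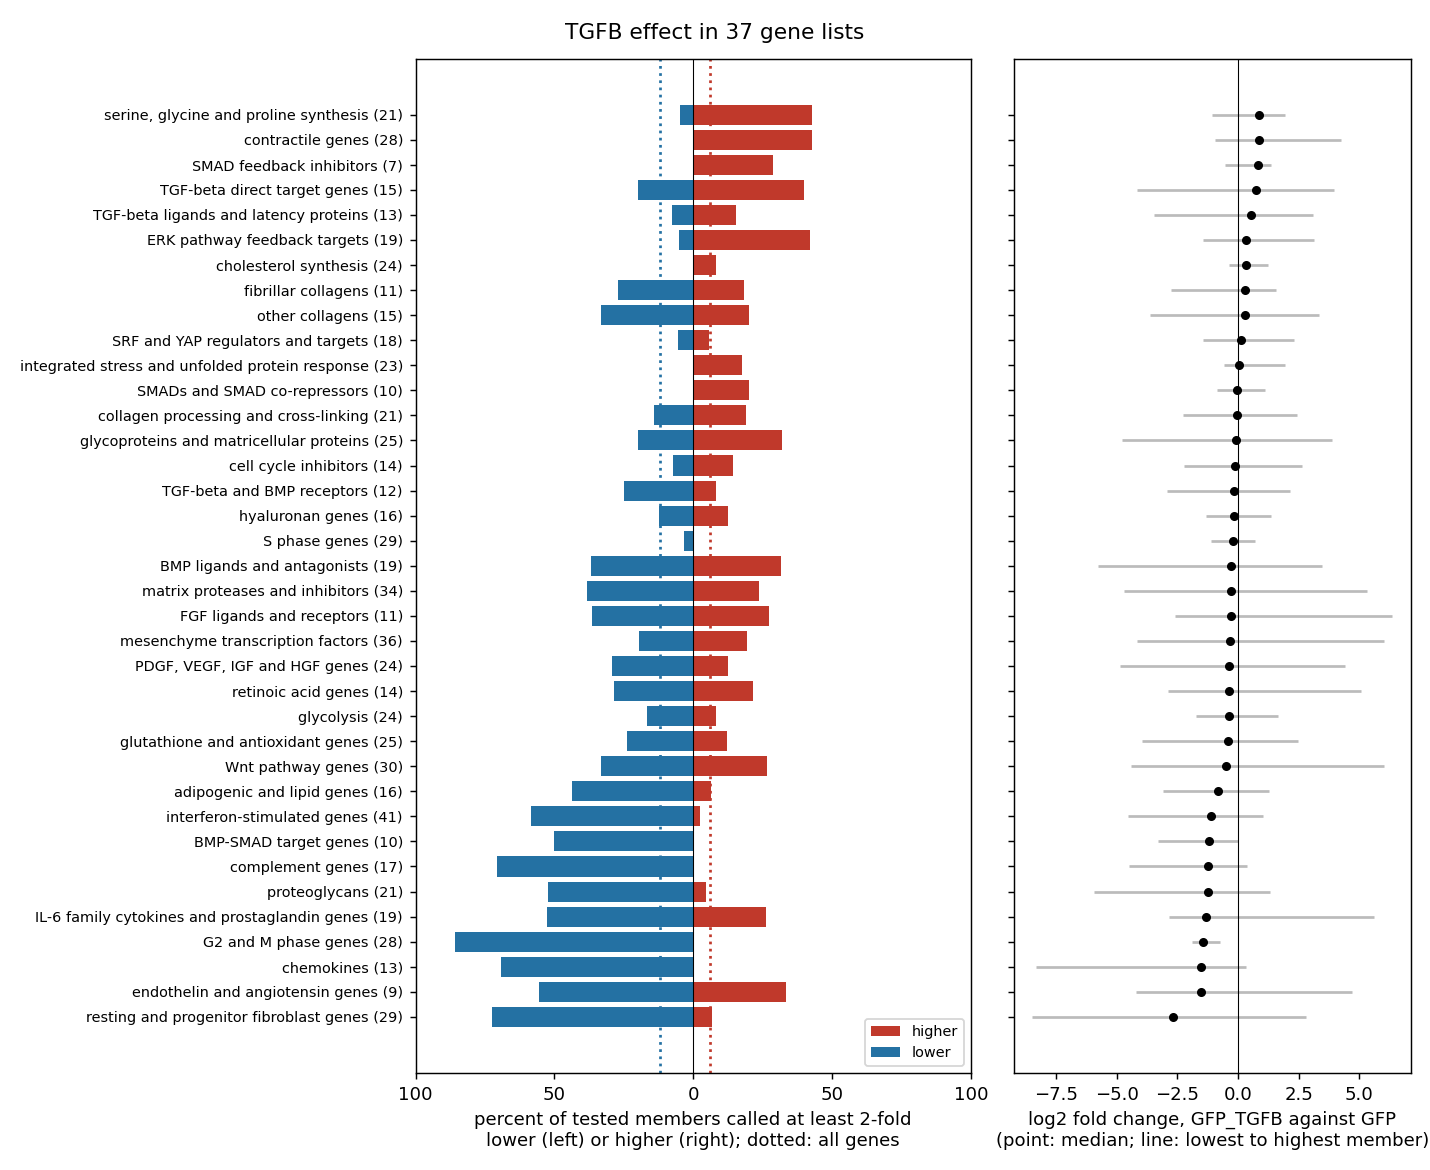
Left, percent of tested members of each of 37 gene lists (number tested in brackets) called at least 2-fold lower (blue) or higher (red), with dotted lines at 11.8% and 6.21% for all genes. Right, the median (point) and the range (line) of log2 fold changes: contractile and serine synthesis lists have the highest medians and resting fibroblast genes the lowest.

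The 4 isolates differed in where they started more than in where they arrived. To read this on genes not chosen in the same libraries, genes that changed at 2-fold between Cre_TGFB and Cre were used, 951 higher and 1938 lower. The first set held 3.99%, 4.4%, 3.05% and 3.66% of counts in GFP and 11.6%, 11.3%, 11.6% and 11.7% in GFP_TGFB. The second set held 11.6%, 10.4%, 14% and 13.1% in GFP and 3.26%, 3.35%, 3.31% and 3.2% in GFP_TGFB. In GFP the female isolates lay nearer to the treated state in both sets, and with TGFB the isolates lay within a narrow band. The Cre libraries came from the same isolates, so they are not independent cells. The slope of each isolate's change on the Cre fit was 0.87 and 0.77 in the female isolates and 1.02 and 0.99 in the male ones.

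**Figure D4:**
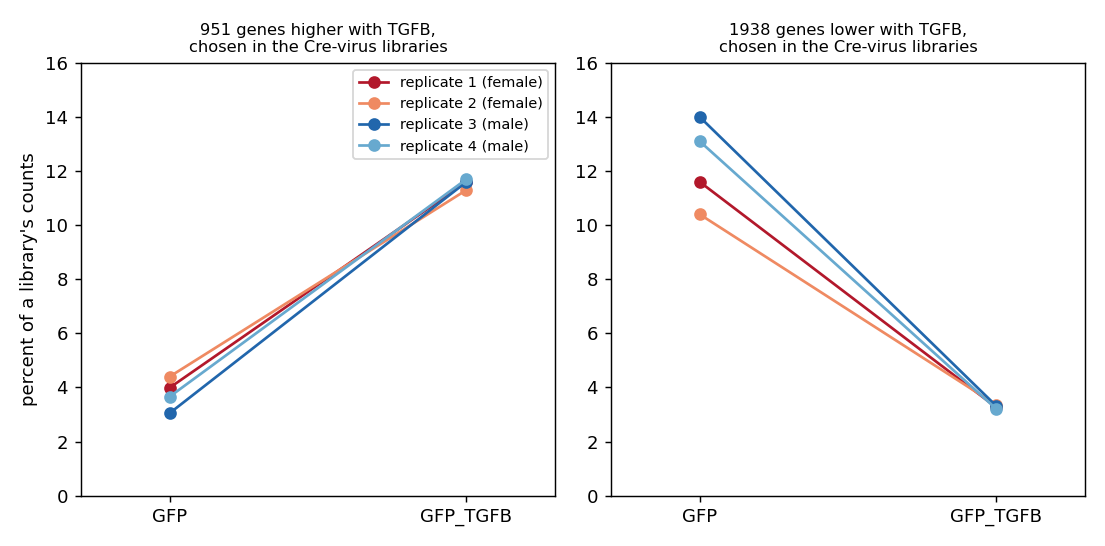
Percent of a library's counts (y) held by 951 genes higher and 1938 genes lower with TGFB, both chosen in the Cre-virus libraries, in GFP and GFP_TGFB (x), 1 line per isolate. The lines start apart, from 3.05% to 4.4% and from 10.4% to 14%, and end close together.

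The TGFB effect differed between female and male isolates for 822 genes (5.55% of those tested, edgeR with the isolate block, adjusted p under 0.05), 412 with a more positive effect in females and 410 with a more negative one. The change was larger in males for 696 of them, larger in females for 39, and in opposite directions for 87. The gap between the sexes was wider without TGFB for 622 and wider with it for 200. Tested within a group without the isolate block, females and males differed in 1944 genes in GFP and in 282 in GFP_TGFB. Each sex is 2 isolates, so sex and isolate cannot be told apart. The count of 822 was 275 without replicate 2, 1330 without replicate 1, and 245 without the isolate block.

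In several gene groups described above this difference was called more often than in all tested genes (5.55%). In serine, glycine and proline synthesis, 9 of 21 members had a lower effect in females and none a higher one. Psat1 lay at 50 and 69 CPM in GFP and 58.1 and 64.6 CPM in GFP_TGFB in the female isolates, and at 43.2 and 42.2 and then 92.9 and 87.1 CPM in the male ones. Female values with and without TGFB thus overlapped while both male values with TGFB lay above both without it, and the log2 difference of the effects was -1.02 (edgeR adjusted p = 0.000606). In the stress response list 5 of 23 differed the same way, and Atf3 had the largest difference among those with examples above, at -1.79 (edgeR adjusted p = 0.000333). It rose from 4.5 and 5.1 to 7.71 and 8.52 CPM in females and from 3.27 and 3.81 to 22.3 and 19.1 CPM in males. Of 19 ERK feedback targets, 6 had a lower effect in females and 1 a higher one.

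Cholesterol synthesis went the other way, with 9 of 24 members having a more positive effect in females. Hmgcs1 rose from 41.8 and 34 to 63.2 and 58.5 CPM in females and went from 52.3 and 77.1 to 50 and 59.7 CPM in males (difference 0.91, edgeR adjusted p = 0.00147). Of 29 resting fibroblast genes, 12 had a more positive effect in females and none a more negative one, among them Ly6a (difference 1.51) and Cd34 (1.42). Of 10 BMP-SMAD targets, 4 had a more positive effect in females and none a more negative one, including Id2 (1.20, edgeR adjusted p = 0.00106). None of the 28 G2 and M genes was called in this test, too few genes to set apart from the 5.55% of all genes. The largest called differences among genes whose highest group averaged 1 CPM or more were Fmo2 (3.96), a flavin monooxygenase, Clec3b (3.49), which codes for tetranectin, and the complement gene C7 (3.30), all with a deeper fall in males, and Htr2b (-4.01), the protease Prss46 (-3.75) and the adaptor Cass4 (-3.09), all with a higher rise in males. Many of these lie near the counting floor in 1 group, so the sizes depend on the prior count. The calls of Fmo2 and Prss46 were lost without replicates 2 and 4 (edgeR adjusted p = 0.0684 and 0.0505), and those of Fmo2 and C7 without the isolate block (0.104 and 0.111).

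**Figure D5:**
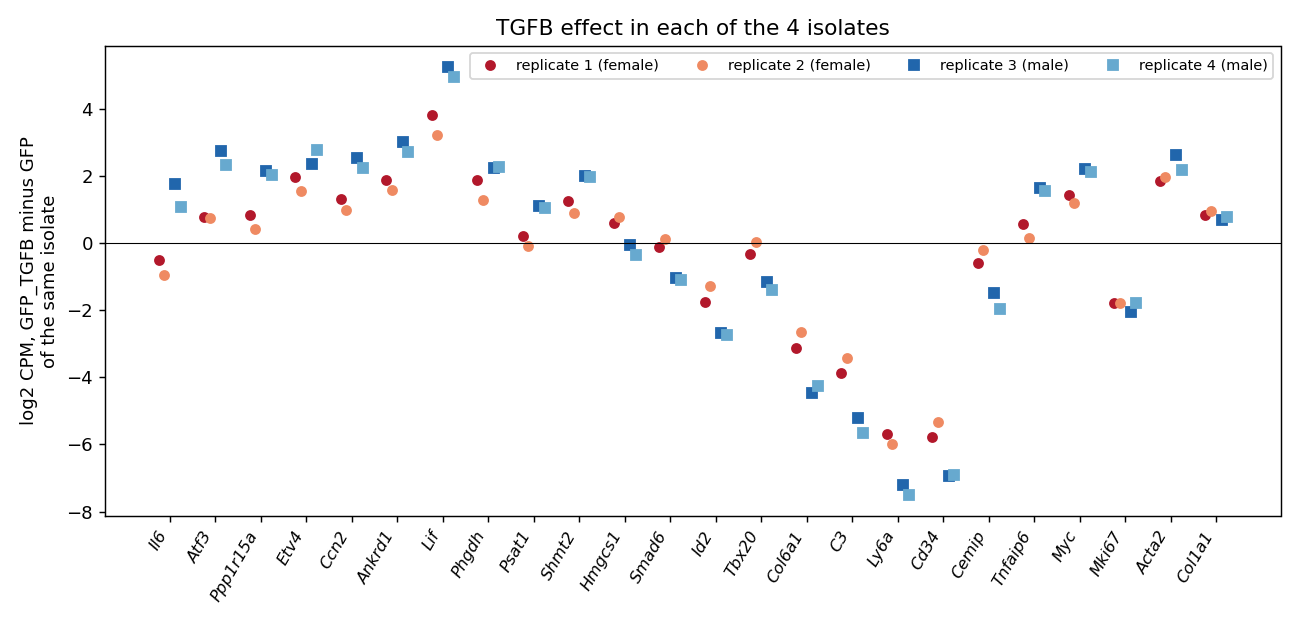
Log2 CPM of GFP_TGFB minus GFP in the same isolate (y) for 24 genes (x), chosen with their values known, circles for female and squares for male isolates. Squares and circles separate for Atf3 and Psat1, lie on opposite sides of 0 for Il6, and overlap for Mki67 and Col1a1.

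The response was compared with that of cells from the same isolates that had received Cre virus, labelled as a knock out of Hyal2 exon 2. Reads of Hyal2 remained, at 10.4 CPM in Cre and 7.36 CPM in Cre_TGFB, against 40.9 CPM in GFP and 36.5 CPM in GFP_TGFB. Over 16 libraries and 15461 genes, edgeR called a different TGFB effect for 0 genes (0%), with 916 (5.92%) at an unadjusted p under 0.05 and a smallest adjusted p of 0.0851. DESeq2 called 40 genes, edgeR without a low-count filter 10, and edgeR without replicate 2 called 7. The smallest p values belonged to interferon-stimulated genes: Tgtp2 had a log2 fold change of -1.37 with the GFP virus and -2.50 with Cre (difference -1.13, edgeR adjusted p = 0.0851), Usp18 one of -0.23 and -1.41, and Oasl1 one of -0.77 and -1.83. With TGFB the mean levels were close, at 3.76 CPM with the GFP virus and 4.08 CPM with Cre for Tgtp2. They were 40.9 and 43.1 CPM for Usp18, and 7.74 and 7.62 CPM for Oasl1. Without TGFB they were higher with Cre, at 9.87 and 23.5, 48.2 and 114, and 13.2 and 27.3 CPM. DESeq2 gave the 3 differences of the TGFB effect adjusted p of 3.27e-06, 3.27e-06 and 0.000114. The TGFB effects of Acta2, Col1a1 and the other named members were thus not shown to differ between the viruses, which does not show that they were alike.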

How the data were processed

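The deposited values were raw counts of reads per Ensembl gene, made with HTSeq 0.10.0 after FastQC 0.10.1 on build GRCm39, per the submitters' processing notes. Per the labels' protocols, total RNA (Trizol, DNase) went into a NEBNext Ultra II library kit. The aligner, annotation release and strand setting are not given there or elsewhere in the sources used here, so reads of antisense and overlapping genes cannot be told apart. Symbols came from an annotation of GRCm38 (52081 of 55414 identifiers). Promoter sequences came from RefSeq, GRCm38.p6.

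Tests on the counts of the 8 libraries, 38.6 to 72.1 M each, used edgeR 4.0.16 (R 4.3.3) with TMM, a robust quasi-likelihood F test and the replicate number as block. filterByExpr (minimum count 10, minimum total 15) kept 14824 of the 27971 genes with a count. Genes were called at 0.05 after Benjamini-Hochberg adjustment over the whole table. The SE of a log2 fold change is its size over the square root of F. The sex difference was a contrast of the TGFB effects within each sex, and the virus difference a contrast over 16 libraries, both with the block. Library names give each replicate number 1 isolate code, and deviations of same-numbered libraries from their group means correlated at 0.474, 0.31, 0.272 and 0.444. Libraries of the same sex but with different numbers correlated at 0.209 to 0.298. For replicates 2 and 3 the correlation therefore hardly sets the isolate apart from sex. Nothing in the labels says how many mice stand behind an isolate, so p-values measure the spread between these cultures. Replicates differed by more than counting noise (chi-square per degree of freedom at least 8.14).

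The members and the 37 gene and 8 marker lists were chosen with earlier results of these data known. Lists are described by counts and medians, with no set test. Named genes were the 10 largest called changes each way with 5 CPM or more in the higher of the groups and 1 direction in 4 pairs, leaving out clone names, up to 4 called members per list with the largest change, a fixed set of myofibroblast, matrix and signalling genes, and, for each difference, the 3 largest called each way or the 3 smallest p values among genes whose highest group averaged 1 CPM or more. Other members are named with their log2 fold changes to complete a family, and were chosen after their values were seen. Alternatives were limma-voom (limma 3.58.1), DESeq2 1.42.0, other scalings and filters, no block, all 20 libraries, and leaving out each replicate. On simulated counts for 14538 genes of this comparison, 56% of genes changed 1.5-fold were called. The shares were 82% at 2-fold, 98% at 4-fold and 94% at 8-fold, and there were 8 false calls in all. Only a small set of genes was changed there, while 57.5% were called in the data. These rates therefore do not carry over to the data. A few genes that these rules name are not reported here.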

Additional observations from a re-analysis of the deposited data

Results flagged for a closer look

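Among 37 genes named whatever their change, 74 groups of 4 libraries were examined. In 5 of them 1 library stood far from the other 3, and chance gives about 1 in 20. Most of these were replicate 2, the deepest isolate in both groups. With TGFB, Pdgfra lay at 169 CPM in replicate 2 and 145 to 148 CPM in the others, and Meox1 at 204 against 292 to 308 CPM. In GFP, Lef1 lay at 0.187 CPM in replicate 2 against 0.0444 to 0.0673 CPM, and Il11 at 4.68 against 1.26 to 1.71 CPM. Nox4 lay at 14 CPM in GFP replicate 4 against 8.66 to 9.32 CPM. None of these genes lost its call without any 1 replicate.

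The TGFB effect differed between the female and male isolates by a test of the difference itself for 822 genes. Beside the largest above 1 CPM, Fmo2 at 3.96, Clec3b at 3.49, C7 at 3.30, Htr2b at -4.01, Prss46 at -3.75 and Cass4 at -3.09 (female minus male, log2), this held for 8 genes named whatever their change. The effect was lower in females for Ccn2 (-1.23), Il6 (-2.15), Etv4 (-0.81), Phgdh (-0.67), Tgfb1 (-0.59) and Tagln (-0.53), and higher for Cxcl5 (2.28) and Ccnd1 (0.60). In all of these but Il6 both sexes changed in 1 direction.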

How the results depend on the processing

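The counts for TGFB kept within 1.5 times of 8517 under every alternative but 1: asking for a change above 1.5-fold with glmTreat left 3021 genes, 1163 higher and 1858 lower. Leaving out 1 replicate gave 6893 to 8748. Without the isolate block, which pairs the libraries, 8133 genes were called. Of 171 named genes, 159 kept direction and call throughout. Il6, uncalled throughout, ranged from -0.17 to 0.77 without 1 replicate and was -0.07 without the block; the cause was not tested. The sex difference, 822 genes, became 1355 without a low-count filter, 245 without the block, and 275 to 1330 without 1 replicate. The virus difference, 0 genes, became 40 with DESeq2, 10 without a filter, and 0 to 7 without 1 replicate. Of 270 list medians under alternatives, 25 moved by more than the spread of the pairs, and 1 changed sign: that of the stress response list, from 0.06 to -0.05 with library totals. Without a low-count filter Atf3, Cemip, Col27a1, Ier3, Ppp1r15a and Tnfaip6 lost their calls (adjusted p 0.0586 to 0.19). The limits are 2 isolates per sex, counts of mixed cultures, an unclear control medium, and genes near the floor of 3 counts, whose fitted sizes depend on the prior count.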

Other observations

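Several non-coding transcripts outside the lists changed with TGFB. H19, an imprinted transcript of fetal tissue, fell from 8.10 ± 1.22 to 1.76 ± 0.488 CPM (SD, n = 4 each, log2 fold change -2.19, edgeR adjusted p = 3.32e-05), lower in 4 of 4 pairs. Hand2os1, the neighbour of the cardiac transcription factor gene Hand2, had a log2 fold change of -1.71, and Hand2 itself one of -1.14. Neat1, the scaffold RNA of nuclear paraspeckles, lay at 120 ± 23.6 CPM in GFP and 60.6 ± 8.89 CPM in GFP_TGFB (log2 fold change -0.97). The imprinted transcript Rian rose by 0.89 and the small nucleolar RNA host gene Snhg6 by 1.00. Without a stated strand setting, reads of these genes and of overlapping neighbours cannot be told apart.

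Among genes of no list that were chosen after their values were seen, several are best known from other tissues. Nestin (Nes), an intermediate filament gene of neural progenitors, rose from 69.7 ± 23.7 to 788 ± 87.3 CPM (SD, n = 4 each). The growth factor gene Hbegf, a ligand of the EGF receptor, rose from 22 ± 9.57 to 366 ± 34.9 CPM, and Sema7a, a membrane-anchored semaphorin, from 6.01 ± 2.5 to 159 ± 21.2 CPM.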
